A study of Mus musculus with 8 samples.

Results

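Axon guidance molecules are the secreted and membrane-bound ligands that steer growing axons, together with the receptors that read them. Slits signal through Robo receptors, semaphorins through plexins and neuropilins, ephrins through Eph receptors, and netrins through Dcc, neogenin and the Unc5 receptors. In the cortex the same molecules also act after axons have arrived, in the placement of interneurons, the choice of the part of a target cell that is contacted, and the shaping of synapses.

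The members were every gene name that matched a fixed pattern for these families, with 2 family members left out by the rule. The pattern found 69 of 23335 gene names, 35 ligands and 34 receptors, on 83 of 27207 transcript rows. They were examined in single interneurons of mouse frontal cortex, picked by hand as red fluorescent cells and amplified in library batches of 16 cells. Chandelier cells (ChC), which contact the start of the axon of pyramidal neurons, came from Nkx2.1-CreER; Ai14 mice given tamoxifen late in gestation. Fast-spiking basket cells (Pv) came from Pv-ires-Cre; Ai14 mice, in which Cre follows the parvalbumin gene. The sample titles label the cells of both types as from WT mice. All animals were female, with animals 1 and 2 for ChC, at postnatal days 31 and 32, and animals 3 and 4 for Pv, at postnatal days 29 and 35. Each animal gave 2 library batches, numbered 1 to 4 for ChC and 5 to 8 for Pv, and 1 cell of each type failed, which left 63 cells of each. The red label marks cells in which Cre acted in the past. In ChC mice these are cells with Nkx2.1 around the time of tamoxifen, and in Pv mice cells with a history of parvalbumin expression at any time, so other cells can carry the label too. The treatment label of the Pv samples also mentions tamoxifen induction of Nkx2.1-CreER mice, and tamoxifen is taken here as given to ChC mice only. On that reading, cell type, mouse line, tamoxifen and flow cell cannot be told apart, since each changed only together with the others. Within a cell type, lane and animal changed together.

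Expression was counted as unique molecular identifiers (UMIs), each the tag of 1 amplified molecule. The UMI totals, with a gene's rows summed, were 527743, 657957, 2898413 and 1307666 in ChC batches 1 to 4. They were 456458, 501563, 370238 and 921212 in Pv batches 5 to 8. Cells were uneven within batches as well, from 903 to 515374 UMIs per ChC cell with a median of 33244, and from 2000 to 93438 per Pv cell with a median of 23248. A count of 0 in a batch therefore allowed a level of up to 1.13 CPM (UMIs scaled to a common library size, with TMM factors) in batch 3 and up to 6.92 CPM in batch 5, the lowest and highest limits, taking 3 counts as the limit. Limits over all cells of a type, or over all batches, are from pooled UMIs without TMM factors. These limits cover counting error only.

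The markers matched the labels in part. Gad1 and Slc32a1, which serve the making and packing of GABA, measured 506 to 2471 CPM and 785 to 2984 CPM over the 8 batches. Gad2 and Lhx6 had higher means in ChC, with overlap. Gad2 measured 162 to 813 CPM in ChC and 33.2 to 448 CPM in Pv, and Lhx6 155 to 901 CPM and 46.1 to 268 CPM. Pvalb, which encodes parvalbumin, measured 75.9 to 165 CPM in the ChC batches and 414 to 1488 CPM in the Pv batches, with no overlap. Of the 9 interneuron markers, 8 were detected, Vip was at 0, Sst had a UMI in 1 cell, and Erbb4 had the highest mean over the 8 batches. In Pv alone Slc32a1 was higher, with a mean of 1882 CPM against 1470 CPM for Erbb4. The summed level of the 9 markers was 7803, 8980, 8327 and 8148 CPM in ChC batches 1 to 4 and 7298, 6680, 3419.7 and 6489 CPM in Pv batches 5 to 8, lowest in batch 7. The higher sums in ChC rest on Erbb4, which measured 3681 to 4767 CPM in ChC and 1149 to 1807 CPM in Pv. Nkx2-1 overlapped, at 112 to 138 CPM in ChC and 40.8 to 148 CPM in Pv.

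Markers of other cell types were low and uneven. The 4 pyramidal neuron markers, led by Slc17a7, summed to 10.7, 45.5, 4.53 and 78.2 CPM in ChC batches and to 11.5, 2.09, 242 and 26.8 CPM in Pv batches, with Neurod6 and Tbr1 at 0. The 4 astrocyte markers, led by Slc1a3, summed to 17.2, 108, 65.3 and 196 CPM against 11.5, 4.19, 129 and 84.8 CPM, with Gfap at 0. The 7 markers of oligodendrocytes and their precursors, led by Mbp, summed to 10.7, 12.1, 150.2 and 203 CPM against 6.92, 2.09, 176 and 155 CPM, with Mobp and Cspg4 at 0. Batch 4 held the highest sum of all 3 lists in ChC, and batch 7 in Pv. The 3 microglial markers, led by Csf1r, reached 28.2 CPM in batch 4 and at most 3.91 CPM elsewhere, with C1qa at 0. The 4 vascular markers, led by Flt1, reached 64.4 CPM in batch 7, of which Pdgfrb made up 50.8, and at most 15.2 CPM elsewhere, with Cldn5 at 0. The part of these transcripts in the results for batches 4 and 7 was not tested.

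What a count stands for was tested on the table. Where the genomic span of 1 row lay inside that of another row of the same gene and strand, the outer row held at least as many UMIs in every cell for 2530 of 2535 pairs. The same held for 601 of 602 pairs of different genes on the same strand, and for 211 of 213 pairs on opposite strands. With each outer row set against the inner row of the next pair instead, it held for 1083 of 2535, 475 of 602 and 86 of 213, so the same-strand pairs of different genes tell least. Tags were therefore counted over the whole span of a gene, introns included, and without strand, so genes that overlap share tags. Summing the rows of a gene, as the members' rule asks, counts a shared tag more than once. This concerned 11 members, of which 5 with UMIs had rows with identical counts in every cell. Sums over families, shares of cells and levels set between genes use the single row with the most UMIs instead. Their CPM are relative to the smaller total of these rows, so genes with 1 row read higher than with rows summed. Slit3 in batch 5, for example, measured 417 CPM this way and 358 CPM with rows summed.

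The cells of 1 batch differed little beyond their depth for the genes that could be examined. For genes with at least 50 UMIs in a batch, the spread of UMIs over its cells, relative to what each cell's total predicts, had a median of 0.984 to 1.13 over the 8 batches, where 1 is the value for counting noise alone. The 100 such values of members had a median of 1.04, and 5 of them, 5.0%, lay above the 95th percentile of their batch. Those were Epha10 in batch 1, Robo2 in batch 2, Epha6 in batch 6, and Plxna2 and Unc5c in batch 7. Between batches, by contrast, some members came and went. Of 49 members with at least 30 UMIs, 5 (10.2%) had over 80% of their summed level in 1 batch, against 780 of 11770 genes (6.63%). The median share of the highest batch was 40.1% for members and 38.3% for all genes. Plxnd1 had a UMI in 16 of 16 cells of batch 7 and in 0 of the other 110 cells, and Plxnb1 in 16 of 16 cells of batch 8 and in 1 of the other 110. The cause of this likeness within batches was not tested. The authors assigned tags to cells, which the counts cannot check, so every share of cells and every count of cells with 2 genes depends on that assignment.

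Of the 69 members, 65 had at least 1 UMI and 41 passed the filter on low counts. Robo4, Sema3b, Sema6c and Efnb1 had none, which over all batches allows up to 0.393 CPM each. UMIs were summed per animal and compared by edgeR's quasi-likelihood test, 2 ChC against 2 Pv animals, with Benjamini-Hochberg adjustment over all genes tested and a threshold of 0.05. It called 0 of 41 members and 0 of 9829 genes, a background of 0%. At an unadjusted p under 0.05 the counts were 5 of 41 members and 616 of 9829 genes, a background of 6.27%. The lowest adjusted p was 0.598 among members and 0.185 among all genes. DESeq2, applied to the same sums, called 0 members and 150 genes. The members' log2 fold changes, ChC over Pv, were positive for 27 and negative for 14, with a median of 0.72, against 5061 positive and 4768 negative and a median of 0.04 over all genes tested. The members' median was the same with Ntn3, which was at 0 in Pv, set at its lower bound. The median was positive under every alternative but 1 of 20, and its size varied. Without animal 1, the exception, the 48 members tested were 23 positive and 25 negative with a median of -0.28, against -0.08 over all genes. Without animal 2 they were 25 and 23 of 48 with a median of 0.12, against -0.30 over all genes. Without animal 4 they were 27 and 16 with a median of 0.98, against 0.58, and without batch 8 they were 22 and 19 with a median of 0.40, against 0.05.

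Some members separated the batches of the cell types completely. Epha6, Unc5d and Ntn3 were higher in all 4 ChC batches than in any Pv batch, 3 of 41 members against a background of 2.9%. For Ntn3 this holds by the counts only, since batch 1 had a single UMI, at 2.14 CPM, which is below the limit that a count of 0 sets in each Pv batch, 3.22 to 6.92 CPM. Epha4 was higher in all 4 Pv batches, 1 of 41 against a background of 1.4%. With upper-quartile scaling, Epha6 no longer separated them. With each cell thinned to 10000 UMIs, 3 members did, Ephb1, Sema5a and Unc5d, so that Unc5d alone was shared with the 4 above. With cells under 10000 UMIs left out, Epha4, Epha6 and Unc5d did and Ntn3 did not. Batches of 1 animal were far apart for most members. The absolute log2 ratio of the 2 batches of an animal, with 1 CPM added, averaged over animals, had a median of 1.71 over the 41 members. Over all genes tested the median was 1.80.

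The summed levels of receptors and of ligands leaned opposite ways. The 34 receptors together measured 5339.7, 3371, 4142 and 3534 CPM in ChC batches 1 to 4 and 1749.5, 2716, 2476 and 1665 CPM in Pv batches 5 to 8. The 35 ligands together measured 527, 590.5, 671 and 682 CPM in ChC and 821, 1256, 774 and 713 CPM in Pv. All ChC batches lay above all Pv batches for receptors and below them for ligands. The ligand sums in Pv rest in part on a few genes. Slit3 gave 417, 135 and 98.3 CPM in batches 5, 7 and 8, and Sema5a and Sema3a gave 492 and 356 CPM in batch 6. In ChC batches Slit3, Sema5a and Sema3a gave at most 50.4, 30.4 and 45.4 CPM. With upper-quartile scaling the cell types' means kept these directions, at 3982 against 2377 CPM for receptors and 575 against 991 CPM for ligands, but the batches overlapped for both. Gene by gene, tested ligands did not lean to Pv, with 11 positive and 8 negative log2 fold changes and a median of 0.51, against 16, 6 and 1.05 for receptors. The 490 tested genes with spans over 300 kb had a median log2 fold change of 0.36, 315 of them positive, and the 7865 with spans up to 100 kb a median of -0.02. The 1474 of 100 to 300 kb lay between, at 0.24. For members the medians were 0.75 for the 13 over 300 kb, of which 8 were positive, 0.01 for the 15 of 100 to 300 kb and 0.77 for the 13 up to 100 kb. Those over 300 kb held 69.7% of the members' UMIs.

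**Figure D1:**
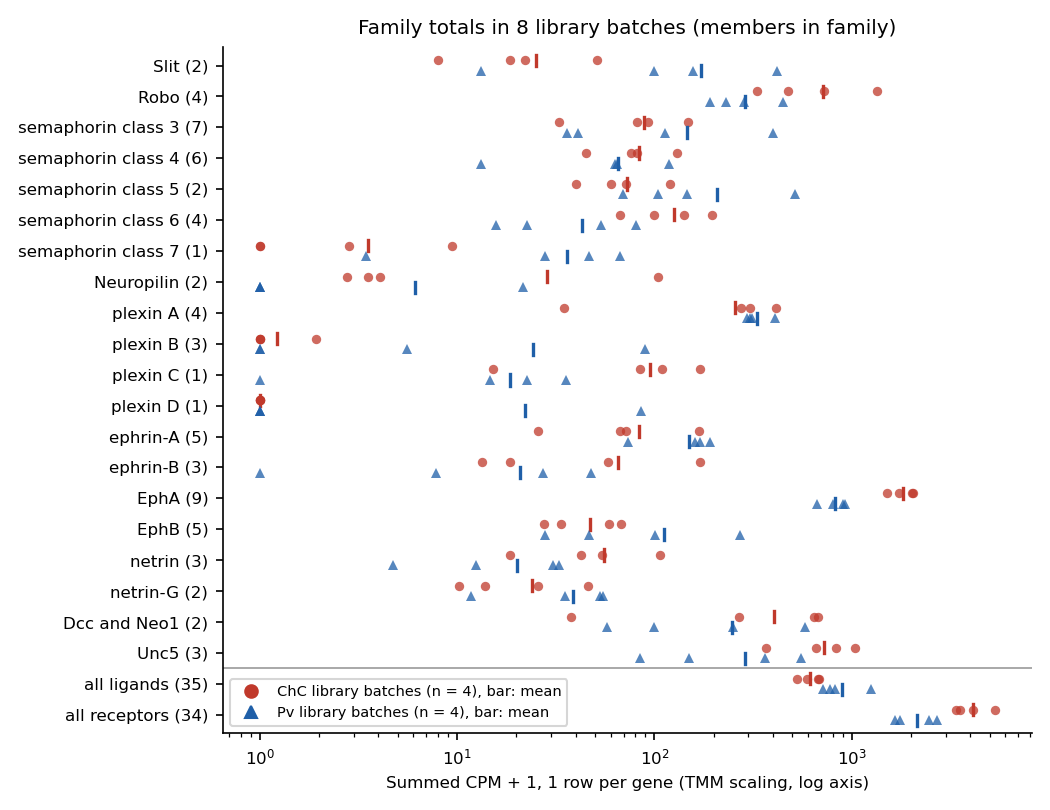
Summed CPM plus 1 (log axis) of each ligand and receptor family and of all ligands and receptors, with the row of most UMIs per gene; points are library batches, circles for ChC and triangles for Pv, and bars the mean of 4 batches. Only the EphA family among the single families, and the 2 sums at the bottom, show no overlap between the cell types.

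Slits are large secreted proteins that mostly repel axons. Slit3 measured 42.9, 18.2, 5.66 and 14.9 CPM in ChC batches 1 to 4 and 358, 10.5, 115 and 84.8 CPM in Pv batches 5 to 8. Batches 5, 7 and 8 lay above every ChC batch, and batch 6 lay within the ChC range. The mean was 20.4 ± 15.9 CPM (SD, n = 4) in ChC and 142 ± 150.3 CPM in Pv, and edgeR gave a log2 fold change of -2.93 (SE 1.20) with an adjusted p of 0.756. Without batch 5 it was -1.57. Slit3 spans chr11:34934958-35522009 (mm9, plus strand), 587 kb. Slit1, the other Slit among the members, had 10 UMIs in all, 9 of them in batch 7, where it measured 17.6 CPM.

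Of the Robo receptors, which bind Slits, Robo1 and Robo2 were present in every batch. Robo2 measured 829.9, 167, 559 and 354 CPM in ChC batches and 145, 299, 127 and 120.3 CPM in Pv batches. ChC was higher on the whole, with an overlap between ChC batch 2 and Pv batch 6. edgeR gave a log2 fold change of 1.35 (SE 0.67) and an adjusted p of 0.845. Robo1 measured 307, 117, 56.6 and 48.5 CPM in ChC and 96.9, 83.8, 70.3 and 44.03 CPM in Pv, with wide overlap and its highest level in batch 1. Robo3, which lowers the response to Slits as axons cross the midline, had 1 UMI, and Robo4, best known from blood vessels, had none. The family's sum was 76.0% Robo2. Per 100 kb of span, Robo2 gave a level of 73.5 CPM and Robo1 31.5 CPM, while Slit3 gave 16.1 CPM.

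Semaphorins are grouped into classes by structure, and class 3 members are the secreted ones. Sema3a, which repels axons through neuropilin and plexin A receptors, measured 116, 0, 11.3 and 2.35 CPM in ChC and 20.8, 911, 5.86 and 12.9 CPM in Pv. Batch 6 held most of it, 84.4% of the sum over batches, while batch 5, from the same animal, lay within the ChC range. These values count each tag 3 times, since the gene's 3 rows are identical, and 1 row gave 356 CPM in batch 6. The log2 fold change was -3.20 (SE 1.65, adjusted p by edgeR 0.862). It turned to 1.43 without animal 3 and to 0.79 without batch 6. Sema3c measured 10.7, 21.2, 4.15 and 97.8 CPM in ChC and 9.23, 2.09, 21.5 and 9.66 CPM in Pv, highest in batch 4 and otherwise overlapping. The ranges of Sema3e and Sema3d overlapped, at 10.6 to 34.9 and 3.91 to 22.8 CPM in ChC and 9.23 to 21.5 and 4.61 to 18.8 CPM in Pv. Of 18 UMIs of Sema3f, all but 2 were in batch 7, and Sema3g had 3.

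Class 4 semaphorins are transmembrane ligands, several of which bind B plexins. Sema4g measured 2.14, 71.3, 37.7 and 13.3 CPM in ChC and 43.8, 0, 3.91 and 41.9 CPM in Pv. Its ranges overlapped fully, with batches 2, 3, 5 and 8 high and batch 6 at 0. Sema4d, a ligand of plexin B1, measured 55.8, 7.59, 4.53 and 4.69 CPM in ChC and 4.61, 6.28, 31.2 and 2.15 CPM in Pv, with 1 high batch in each type. Sema4b ranged from 2.14 to 23.8 CPM over the 8 batches with overlap. The remaining 3 did not pass the filter. Sema4a was found only in batches 7 and 8, with 9 UMIs in its best row, and 27 of the 36 UMIs of Sema4c were in batch 8.

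Class 5 semaphorins are transmembrane proteins with thrombospondin repeats. Sema5a, which can attract or repel axons, measured 19.3, 16.7, 4.53 and 25.8 CPM in ChC and 57.7, 419, 44.9 and 18.3 CPM in Pv. Batches 5 to 7 were above all ChC batches and batch 8 was not. The mean was 16.6 ± 8.90 CPM (SD, n = 4) in ChC and 135 ± 190.0 CPM in Pv. By edgeR the log2 fold change was -3.30 (SE 1.37, adjusted p 0.759), and -0.95 in the leave-out nearest to 0. Sema5b, in contrast, was alike in the cell types, at 40.7, 16.7, 46.02 and 75.1 CPM in ChC and 66.9, 18.8, 42.97 and 40.8 CPM in Pv. Its lowest batch in each type, 2 and 6, was at 16.7 and 18.8 CPM.

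Class 6 semaphorins signal through A plexins and can also act as receptors. Sema6b measured 112, 228, 110.2 and 75.1 CPM in ChC and 23.1, 8.38, 7.81 and 125 CPM in Pv, counting each tag in both of its identical rows. Batches 5 to 7 lay below all ChC batches and batch 8 lay among them. Sema6a measured 23.6, 45.5, 65.3 and 0 CPM in ChC and 6.92, 2.09, 39.1 and 4.30 CPM in Pv, and its groups overlapped through batches 4 and 7. Sema6d did not pass the filter, with at most 18.8 CPM. Sema7a, the GPI-anchored member, which promotes axon growth through integrins and binds plexin C1, measured 0, 0, 7.17 and 1.56 CPM in ChC and 23.1, 2.09, 39.1 and 56.9 CPM in Pv. Batches 5, 7 and 8 were above all ChC batches, and batch 6 was not. Its log2 fold change was -3.52 (SE 1.86, adjusted p by edgeR 0.871).

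Neuropilins are the co-receptors of class 3 semaphorins. Nrp1 was close to undetected, with 7 UMIs, all in batch 3. Nrp2 measured 2.14, 1.52, 0 and 173 CPM in ChC and 0, 0, 35.2 and 0 CPM in Pv. It came mainly from 2 batches, with a UMI in 13 of the 15 cells of batch 4 and in 6 cells of batch 7, and 81.7% of its summed level lay in batch 4. In the row of most UMIs, batch 4 measured 103 CPM.

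Plexins carry the intracellular signal of semaphorins. Among the A plexins, which pair with neuropilins and class 6 semaphorins, Plxna4 measured 122, 111, 227 and 11.7 CPM in ChC and 240.0, 245, 82.0 and 262 CPM in Pv. Batches 5, 6 and 8 were above all ChC batches, and batch 7 was below 3 of them. Plxna2 measured 17.2, 141, 39.6 and 7.82 CPM in ChC and 11.5, 4.19, 146 and 84.8 CPM in Pv, and the groups overlapped fully. Its log2 fold change of 0.01 changed sign under 10 of 20 alternatives. Plxna1 and Plxna3 ranged from 7.04 to 94.4 and from 0 to 61.9 CPM in ChC and from 0 to 15.6 and from 0 to 21.5 CPM in Pv.

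Plxnc1, the receptor of Sema7a, measured 144, 12.1, 93.2 and 71.2 CPM in ChC and 18.5, 0, 11.7 and 30.1 CPM in Pv. Batches 1, 3 and 4 were above all Pv batches, and batch 2 lay within the Pv range. The mean was 80.04 ± 54.5 CPM (SD, n = 4) in ChC and 15.1 ± 12.6 CPM in Pv, a ratio of 5.31, with a log2 fold change of 2.15 (SE 1.25, adjusted p by edgeR 0.883). The Sema7a and Plxnc1 means thus leaned opposite ways. The B and D plexins were features of single batches. Plxnb1, a receptor of Sema4d, measured 76.2 CPM in batch 8, 0.782 CPM in batch 4 and 0 in the others. Plxnd1, a receptor of Sema3e, measured 72.3 CPM in batch 7 and was at 0 in the others, with 37 UMIs in Pv against 0 in ChC. Pooled over all cells, Pv was at least 29.6-fold above the limit of 3 counts in ChC, from batch 7 alone. Plxnb2 and Plxnb3 had 1 UMI each in their best rows, both in batch 7.

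Ephrins are bound to the membrane, the A class by a lipid anchor and the B class by a transmembrane segment, and can also signal into the cell that bears them. Efna5 measured 0, 3.04, 89.4 and 51.6 CPM in ChC and 41.5, 129.8, 107 and 125 CPM in Pv. Batches 6 to 8 were above all ChC batches, and ChC was split by animal, with animal 1 at or near 0. Its log2 fold change was -1.49 (SE 1.49, adjusted p by edgeR 0.988). Efna2 measured 60.04, 18.2, 53.2 and 4.69 CPM in ChC and 18.5, 10.5, 52.7 and 13.96 CPM in Pv, with full overlap. Efna1, Efna3 and Efna4 had at most 2 UMIs each. In the B class, Efnb3 measured 12.9, 10.6, 47.5 and 141 CPM in ChC and 0, 39.8, 5.86 and 17.2 CPM in Pv, highest in batch 4 and overlapping below it. Efnb2 had 14 UMIs and Efnb1 none.

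Eph receptors of the A class, which mainly bind A ephrins, were the most abundant family, and their sum separated the cell types. Together the 9 genes measured 2049, 2019, 1507 and 1741 CPM in ChC batches 1 to 4 and 902, 806, 929.7 and 665 CPM in Pv batches 5 to 8. All ChC batches lay above all Pv batches, and with upper-quartile scaling the groups also stayed apart, at 1108 to 2518 CPM against 567 to 1029.8 CPM. The mean was 1829 ± 256 CPM (SD, n = 4) in ChC and 826 ± 119.6 CPM in Pv, with Epha6 making up 40.4% of the family.

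Epha6 measured 1025, 642, 484 and 606 CPM in ChC and 240.0, 188, 339.8 and 135 CPM in Pv. All ChC batches lay above all Pv batches, the nearest being batches 3 and 7. The mean was 689 ± 234 CPM (SD, n = 4) in ChC and 226 ± 87.1 CPM in Pv, a ratio of 3.05. The log2 fold change was 1.59 (SE 0.61) with an adjusted p by edgeR of 0.724, and it ranged from 1.10 to 1.91 when an animal or a batch was left out. Epha6 spans chr16:59653309-60605357 (mm9, minus strand), 952 kb, and its 3′ end shares 19.5 kb with 4930547E14Rik on the plus strand. That gene held 3, 23, 214 and 74 UMIs in ChC batches and 20, 0, 27 and 121 in Pv batches, against 478, 423, 1284 and 775 and then 104, 90, 174 and 126 for Epha6. At most this many tags of Epha6 can lie in the shared stretch, from 0 of 90 in batch 6 to 121 of 126 in batch 8. Without them Epha6 would be at 404 to 1019 CPM in ChC and at 5.37 to 287 CPM in Pv.

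Epha5 measured 517, 537, 537 and 332 CPM in ChC and 162, 419, 143 and 101 CPM in Pv. ChC was higher except that batch 6 lay above batch 4. By edgeR its log2 fold change was 1.21 (SE 0.70, adjusted p 0.883). Epha10, a receptor whose kinase domain is thought to be inactive, ranged from 169.8 to 477 CPM in ChC and from 12.6 to 232 CPM in Pv, with overlap through batch 8. Epha3 and Epha7 overlapped widely, from 3.04 to 221 and from 15.01 to 117 CPM in ChC and from 0 to 74.2 and from 31.4 to 191 CPM in Pv. Epha8 had 30 UMIs, 29 of them in batches 3 and 4, and Epha1 and Epha2 had at most 3.

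Epha4, which also binds B ephrins and repels axons, went the other way. It measured 17.2, 13.7, 7.55 and 3.13 CPM in ChC and 178, 23.04, 70.3 and 34.4 CPM in Pv. All Pv batches lay above all ChC batches, narrowly for batch 6 and by a wide margin for batch 5. The mean was 10.4 ± 6.25 CPM (SD, n = 4) in ChC and 76.3 ± 70.5 CPM in Pv, a ratio of 7.36 Pv over ChC. The log2 fold change was -2.82 (SE 1.34) with an adjusted p by edgeR of 0.820, and leaving out an animal or a batch moved it between -3.66 and -1.79. Epha4 lies at chr1:77363760-77511663 (mm9, minus strand), overlaps no other row of the table and had 197 UMIs.

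The EphB receptors, which mainly bind B ephrins, were at lower levels. Ephb6, which lacks kinase activity, measured 0, 6.07, 42.6 and 1.56 CPM in ChC and 32.3, 0, 76.2 and 62.3 CPM in Pv. The groups overlapped through batches 3 and 6. Ephb1 measured 2.14, 7.59, 4.15 and 4.69 CPM in ChC and 2.31, 20.9, 115 and 9.66 CPM in Pv, with batch 7 holding 69.1% of the sum and batch 5 within the ChC range. Ephb2 and Ephb3 reached 23.6 and 30.4 CPM in ChC and 9.76 and 29.3 CPM in Pv. Ephb4, best known from veins, had 5 UMIs.

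**Figure D2:**
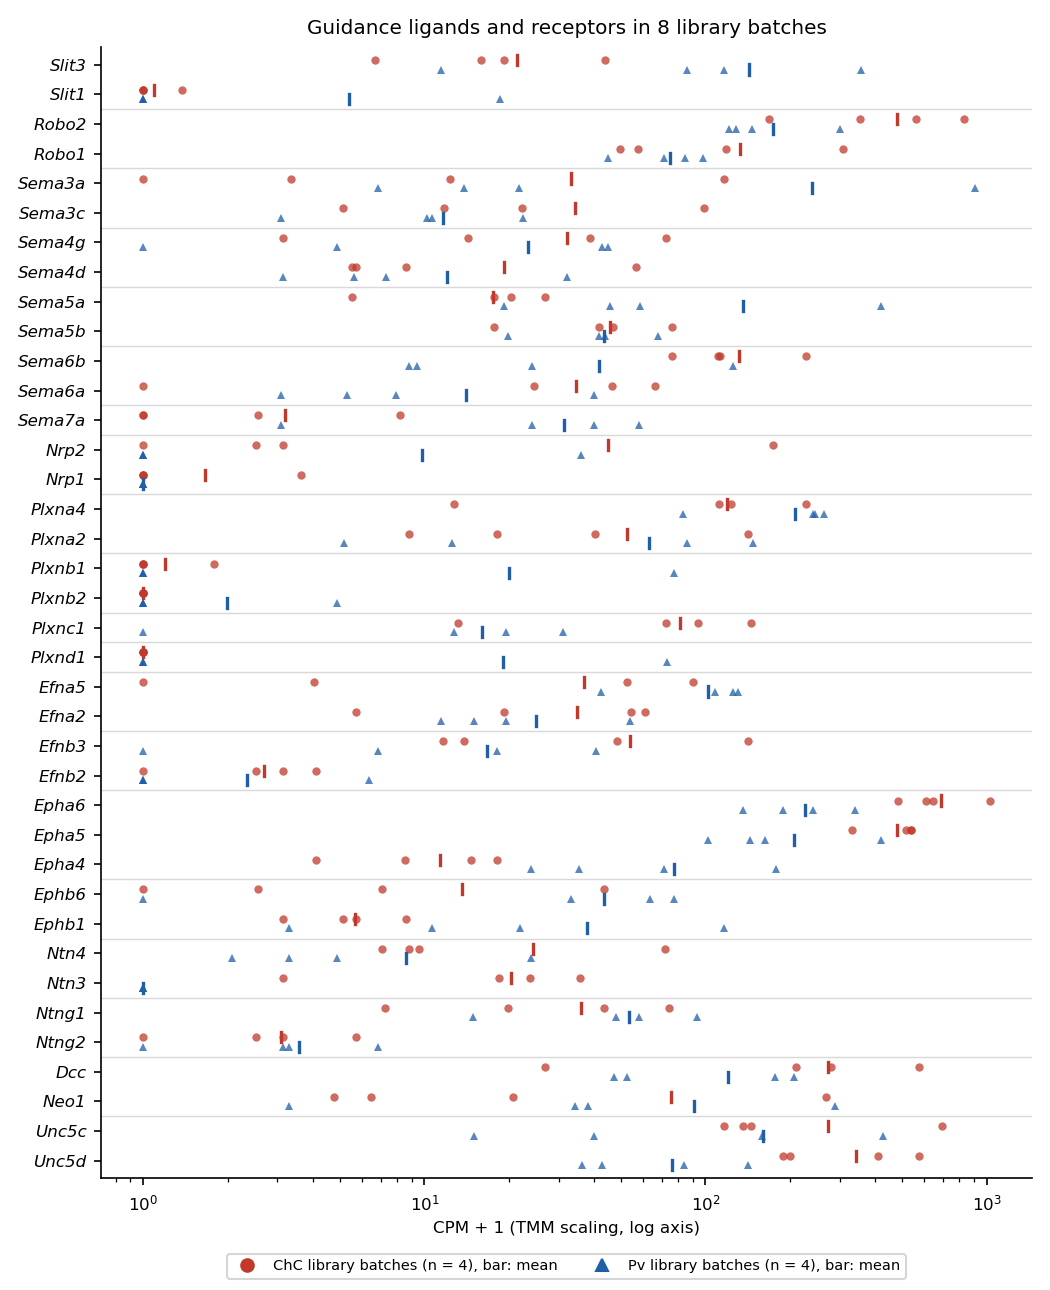
CPM plus 1 (log axis, rows of a gene summed) of the 38 named members, ordered by family; each point is 1 library batch, circles for ChC and triangles for Pv, and bars mark the mean of 4 batches. Epha6, Unc5d and Ntn3 have all circles to the right of all triangles and Epha4 the reverse, while Plxnd1, Plxnb1 and Sema3a rest on single batches.

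Netrins are secreted proteins related to laminins. Ntn1, the classical axon attractant, had 36 UMIs, ranged from 3.02 to 4.69 CPM in ChC and from 2.15 to 23.1 CPM in Pv, and did not pass the filter. Ntn4, a netrin of basement membranes, measured 8.58, 6.07, 70.5 and 7.82 CPM in ChC and 2.31, 23.04, 3.91 and 1.07 CPM in Pv, highest in batch 3 and overlapping through batch 6.

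Ntn3, a netrin that can bind Dcc and Unc5 receptors, had UMIs in ChC batches only. It measured 2.14, 34.9, 17.4 and 22.7 CPM in ChC and 0 in each Pv batch. It was found in 1, 11, 11 and 12 cells of ChC batches 1 to 4, and batch 1 rested on a single UMI. With 99 UMIs against 0, its level in ChC was at least 13.8-fold higher than the limit of 3 counts over all Pv cells. The unadjusted p by edgeR was 0.00889 and the adjusted p 0.598, or 0.249 to 0.943 over the 15 of 20 alternatives that gave one. With cells under 10000 UMIs left out, its batches no longer separated the cell types. Ntn3 lies at chr17:24340791-24346332 (mm9, minus strand). A longer row of Tbc1d24 on the same strand reaches into it, sharing chr17:24340791-24342507. The longer Tbc1d24 row exceeded the shorter one, which ends before Ntn3, by 1, 23, 45 and 29 UMIs in ChC batches and by 0 in every Pv batch. The added part of the longer row also covers bases outside Ntn3. Ntn3 itself held 1, 23, 46 and 29, so at most 98 of its 99 tags can lie in the shared stretch. That stretch falls in the 3′ UTR of the last Ntn3 exon in the GENCODE annotation, which runs from 24340793 to 24343545. The shorter Tbc1d24 row was present in all batches, with 52, 35, 179 and 51 UMIs in ChC and 29, 16, 65 and 105 in Pv. Counts cannot tell whether the tags belong to Ntn3 or to the longer Tbc1d24 transcript.

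Netrin-Gs are anchored by a lipid and bind the Lrrc4 family of synaptic adhesion proteins rather than Dcc. Ntng1 measured 72.9, 42.5, 18.9 and 6.26 CPM in ChC and 13.8, 92.1, 46.9 and 56.9 CPM in Pv. Its ranges overlapped, with the ChC batches of animal 1 above those of animal 2. Ntng2 had 17 UMIs and at most 5.86 CPM.

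Dcc, the receptor through which netrin attracts, measured 279, 209, 572 and 25.8 CPM in ChC and 46.1, 205, 176 and 51.5 CPM in Pv. Batches 1 to 3 were above all Pv batches, and batch 4 was below all of them. Its log2 fold change by edgeR was 1.41 (SE 0.74, adjusted p 0.865), and 0.21 without batch 3. Neo1, which encodes neogenin and also binds the Rgm proteins, measured 268, 19.7, 3.77 and 5.47 CPM in ChC and 2.31, 287, 37.1 and 33.3 CPM in Pv. Batches 1 and 6 were high, from animals 1 and 3, and the other batch of each of these animals was at 19.7 and 2.31 CPM.

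Unc5 receptors turn the response to netrin into repulsion. Unc5d, which also binds the Flrt proteins, measured 573, 199, 409.7 and 188 CPM in ChC and 83.1, 41.9, 141 and 35.4 CPM in Pv. All ChC batches lay above all Pv batches, the nearest being batches 4 and 7. The mean was 342 ± 184 CPM (SD, n = 4) in ChC and 75.2 ± 48.4 CPM in Pv, a ratio of 4.55. The log2 fold change was 2.29 (SE 0.75) with an unadjusted p of 0.0151 and an adjusted p by edgeR of 0.673. Over the alternatives the adjusted p ran from 0.202 to 0.952, and leaving out an animal or a batch kept the log2 fold change between 1.59 and 2.80. Unc5d spans chr8:29757189-30330108 (mm9, minus strand), 573 kb, and overlaps no other row. It is the member that separated the batches under each scaling and each treatment of rows and cells that was tried.

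Unc5c measured 135, 115, 144 and 691 CPM in ChC and 39.2, 427, 158 and 13.96 CPM in Pv. Batch 4 stood out in ChC, batches 6 and 7 lay above 3 ChC batches, and the ranges overlapped. Unc5a had 60 UMIs, at most 22.6 CPM, and did not pass the filter. In batch 4 Dcc was at its lowest and Unc5c at its highest over all batches.

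The genes that act beside or below these receptors were examined as a list of 49, of which 48 were in the table and 42 were tested. None was called, and 2 (4.76%) had an unadjusted p by edgeR under 0.05, against a background of 6.27%. The log2 fold changes were positive for 30 and negative for 12, with a median of 0.32. Over all genes tested they were positive for 5061 and negative for 4768, with a median of 0.04. Chn1, a Rac GTPase-activating protein that works downstream of Epha4, measured 371, 216, 269 and 385 CPM in ChC and 803, 1384, 746 and 958 CPM in Pv. All Pv batches lay above all ChC batches. The log2 fold change was -1.84 (SE 0.53) with an unadjusted p of 0.00842 and an adjusted p by edgeR of 0.598, or 0.190 to 0.966 over the alternatives. Ablim1, an actin-binding protein linked to netrin responses, measured 0, 45.5, 32.8 and 14.1 CPM in ChC and 92.3, 62.8, 174 and 185 CPM in Pv, also without overlap. Mical3, of the family of oxidases that semaphorins act through, measured 191, 325, 163 and 275 CPM in ChC and 41.5, 20.9, 72.3 and 145 CPM in Pv. It was the list's only gene with every ChC batch on top, and the 2 with every Pv batch on top were Chn1 and Ablim1. These are 1 and 2 of 42 against the same backgrounds of 2.9% and 1.4%. Chn1 and Ablim1 have 3 rows each and Mical3 has 2, so shared tags count more than once in these values. In its row of most UMIs, Chn1 measured 111 to 275 CPM in ChC and 302 to 548 CPM in Pv.

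The genes of the list with the highest mean CPM over the 8 batches, with rows summed, were Evl, Tiam1 and Pak3. They have several rows each, so that shared tags count more than once. With rows summed, the order differed by cell type. In Pv, Chn1 was highest, at 973 CPM, and in ChC, Limk2 at 544 CPM and Srgap3 at 488 CPM were above Pak3 at 485 CPM. Chn1 and Limk2 have 3 rows each, so this order too rests in part on shared tags counted more than once. By their row of most UMIs, Pv batches measured 302 to 548 CPM for Chn1 and 224 to 1017 CPM for Srgap3. ChC batches then measured 56.9 to 575 CPM for Limk2 and 358 to 876 CPM for Srgap3. With 1 row per gene, Srgap3 had the highest mean over the 8 batches, at 561 CPM, before Evl at 349.9 CPM. Evl, which promotes actin filament growth, measured 871, 1745, 486 and 543 CPM in ChC and 1114, 515, 484 and 1110.3 CPM in Pv. Pak3, a kinase activated by Rac, measured 914, 431, 295 and 302 CPM in ChC and 581, 1459.6, 555 and 975 CPM in Pv. Tiam1, a Rac exchange factor that Eph receptors recruit, measured 19.3, 501, 1058 and 1495 CPM in ChC and 1398, 10.5, 311 and 690.5 CPM in Pv. For all 3 the ranges overlapped, and Tiam1 nearly vanished in 1 batch of animal 1 and 1 of animal 3. Dpysl3, of the collapsin response mediators that relay Sema3a, was the other gene with an unadjusted p under 0.05. It ranged from 0 to 12.1 CPM in ChC and from 0 to 131 CPM in Pv, where 1 batch of each animal was high and the other at 0. Its 200 UMIs are the sum of 2 rows, of which 1 held 100.

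Levels of members tended to follow the length of the gene. Across the 65 members with a UMI, the Spearman correlation of the mean CPM over batches with genomic span was 0.670, and 0.480 to 0.692 within single batches. Across all 16531 genes with a UMI it was 0.251. For the 41 members tested it was 0.629, and 0.226 to 0.682 within single batches. For all 9829 genes tested it was 0.138, and -0.015 to 0.247 within single batches. Genes are not independent replicates, and these values describe the table. Of the 10 members with the highest level, 8 had spans over 300 kb, from Epha6 at 535.9 CPM to Robo1 at 121 CPM. Per 100 kb of span the order changed. Over the 8 batches Efnb3 came first at 655 CPM, then Epha10 at 597, Efna2 at 322, Sema6b at 291, Sema4g at 222, Ephb6 at 214 and Ntn3 at 203 CPM. This order pools cell types that differ, with Sema6b at 444 CPM in ChC and 138 CPM in Pv, Ephb6 at 97.7 and 331 CPM, and Ntn3 at 407 and 0 CPM. Epha5, at 111 CPM, was the only one of the first 8 with a span over 300 kb, and Epha6 and Dcc gave 56.3 and 20.9 CPM. Batch 4 held 51.3% of the level of Efnb3, and in Pv batches Epha10, at 342 CPM per 100 kb, was above Efnb3, at 299 CPM.

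**Figure D3:**
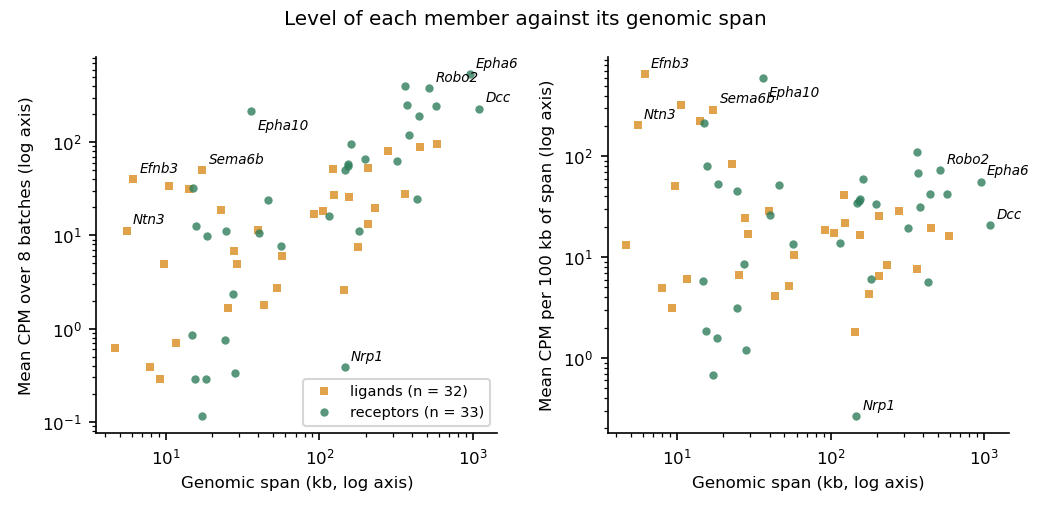
Mean CPM over 8 batches (left) and the same per 100 kb of span (right), both on log axes, against genomic span in kb for the 65 members with a UMI, with the row of most UMIs per gene; squares are ligands and circles receptors. On the left the points climb from the shortest spans to Epha6 and Dcc, and on the right Efnb3 and Epha10 are on top.

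Where rows of a gene end at different places, they show where its tags fall. Of the 330 tags of Epha7, 260 lay within the shorter span that ends at chr4:28874603 (mm9). The short row of Epha10, at its 5′ end, held 42 of 1463 tags. For Sema4f, on the minus strand, the row that lacks the 3′ end held 1 of 40 tags. Of the 137 tags of Ntng1, 110 lay in the span of the row with the more upstream 3′ end, and of the 123 of Nrp2, 118 lay before the end of its shorter row.

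Shares of cells with a UMI followed the levels of the batches. After cells were thinned to 10000 UMIs, which left 48 ChC and 55 Pv cells, Epha6 was found in 100% of ChC and 92.7% of Pv cells, Robo2 in 97.9% and 87.3%, and Epha5 in 93.8% and 85.5%. Shares were further apart for Unc5d, at 95.8% of ChC and 50.9% of Pv cells, Slit3, at 14.6% and 67.3%, Sema5a, at 6.25% and 56.4%, and Epha4, at 6.25% and 45.5%. Nrp1 was found in none of the thinned cells. The shares depend on thinning and on the cells it left. Without thinning, over all 63 cells of each type, Unc5d was found in 95.2% of ChC and 81.0% of Pv cells. Slit3 was then found in 60.3% and 77.8%, Sema5a in 47.6% and 69.8%, and Epha4 in 41.3% and 77.8%.

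A ligand and a receptor that can bind each other were compared as a list of 31 pairs. Both were present in all 8 batches for 9 pairs, and in no batch for 1, Sema6c and Plxna1. Slit3 and Robo2 were found together in 7 of 48 thinned ChC cells and in 31 of 55 Pv cells. Efna5 and Epha5 were found together in 10 and 30, and Efna5 and Epha4 in 2 and 15. Efna2 and Epha5 were found together in 13 of 48 and in 13 of 55. Without thinning, over all 63 cells of each type, Slit3 and Robo2 were found together in 38 ChC and 48 Pv cells. Efna5 and Epha5 were found together in 28 and 51. Efna5 and Epha4 were then found together in 13 and 42, and Efna2 and Epha5 in 35 and 31. Sema3a was accompanied by Nrp1 in 1 batch only, and Sema3e by Plxnd1 in 1. For most of these genes the spread over cells was measured in few batches or none, for want of 50 UMIs, and the counts follow the levels of the batches at least in part.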

How the data were processed

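The authors deposited 1 table of UMI counts per transcript row and cell. Per the submitters' processing notes, reads were aligned with Bowtie 0.12.7 to mm9. Each cell was assigned to its batch by its number in the batch titles, and all cell columns were assigned. The table's transcript length column was deposited by the authors and equals the span in bases. Members and lists were chosen with earlier results of these data known. Rows were summed per gene name and cells per animal, with TMM scaling and edgeR's default filter (edgeR 4.0.16, limma 3.58.1 and DESeq2 1.42.0 in R 4.3.3). Batch CPM used TMM. The SE is the log2 fold change divided by the square root of the F statistic. Members were named if called, if their batches did not overlap, or if among the 2 highest of a family by mean CPM. The list of other genes used the same rules with its 3 highest. Dpysl3 and members outside these rules are given by ranges or UMIs, and were chosen with their values known. Of the steps, the edgeR fit was tested on simulated counts. Alternatives were batches as samples, voom with animal as block, DESeq2, upper-quartile scaling, no filter, 1 row per gene, shallow cells left out, thinning to 10000 UMIs, and leaving out each animal or batch.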

Additional observations from a re-analysis of the deposited data

Results flagged for a closer look

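In 84 groups of 4 batches, 1 cell type and 1 named gene each, the farthest value was compared with the range of the group by Dixon's test. It marked 27 values in 20 genes, where chance would mark about 1 in 20 groups of normally distributed values. The share over all genes was not computed, so the count does not set the members apart from other genes. Sparse counts do not meet this, and in 9 of the 27 the other batches were all at 0, which always marks the value, even a single UMI. Batch 7 held 8 of them. The values are CPM, none was removed, and the causes were not tested. Among ligands, Slit1 measured 0.377 in batch 3 and 17.6 in batch 7. Sema3a measured 116 in batch 1 and 911 in batch 6. Sema4d measured 55.8 in batch 1 and 31.2 in batch 7. Sema5a measured 419 in batch 6, Sema6a 39.1 in batch 7 and Sema6b 125 in batch 8. Efnb2 measured 5.37 in batch 8. Ntn4 measured 70.5 in batch 3 and 23.04 in batch 6. Among receptors, Robo2 measured 299 in batch 6. Nrp1 measured 2.64 in batch 3, and Nrp2 measured 173 in batch 4 and 35.2 in batch 7. Plxna4 was low, at 82.03 in batch 7. Plxnb1 measured 0.782 in batch 4 and 76.2 in batch 8, Plxnb2 3.91 in batch 7 and Plxnd1 72.3 in batch 7. Epha5 was low, at 332 in batch 4. Ephb1 measured 115 in batch 7 and Ephb6 42.6 in batch 3. Neo1 measured 268 in batch 1 and 287 in batch 6. Unc5c measured 691 in batch 4.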

How the results depend on the processing

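No member tested was called under any of the 20 alternatives, which tested as few as 22 members with thinned cells and 26 with batches as samples. The lowest adjusted p was 0.0553, for Sema3a without animal 4. The number of genes called, 0 of 9829 at first, moved with the method. It was 5 with batches as samples, 6 with voom and animal as block, 150 with DESeq2, 80 without the filter on low counts, and 1 with cells thinned to 10000 UMIs. Upper-quartile scaling, 1 row per gene and leaving out shallow cells each gave 0. Leaving out 1 animal or 1 batch at a time gave 0 to 100, and the cause was not tested. Without 1 animal, a cell type has a single animal and the spread comes from the other type alone, so these p-values are weak evidence. Of the 37 named genes with a fitted fold change, 22 kept their direction under every alternative that fitted them and 15 turned under at least 1, with 25 fitted under all 20. Leaving out 1 animal or batch moved the fold by over 1.5 times for 33 of the 37. Unc5d, Epha6, Epha4, Slit3, Sema5a and Chn1 are among the 22. No paired analysis was possible because the cell types share no animal, batch or flow cell.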
